A study of Mus musculus with 12 samples.

Results

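The unfolded protein and heat shock genes are 39 genes for molecular chaperones, folding enzymes and the sensors and transcription factors that control them. They were taken from a list of symbols matched to the Ensembl IDs of the deposited count table, which holds 55401 gene IDs. By where their products act, 24 belong to the endoplasmic reticulum (ER), 13 to the cytosol and nucleus, and 2 to mitochondria. Each symbol had 1 row except Ddit3, whose second ID (ENSMUSG00000116429) overlaps the first (ENSMUSG00000025408), held 2 counts over all 12 libraries and did not pass the filter on low counts. The other 39 rows all passed that filter, among 21958 genes tested.

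The RNA came from the medial prefrontal cortex (mPFC) of male mice, at a time labelled as 2 weeks of extinction of conditioned place preference (CPP), in which mice come to favour the compartment where they received a drug. There were 3 groups of 4 libraries: an adeno-associated virus (AAV) directed against the serotonin receptor 5-HT6R with morphine (knockdown with morphine, replicates 1, 2, 3 and 5), a scramble virus with morphine (replicates 1, 3, 4 and 5) and a scramble virus with saline (replicates 2, 3, 4 and 5). All 12 libraries thus come from virus-injected males on the same extinction schedule. A group with knockdown and saline was not analysed here, so knockdown against scramble can be read only in mice given morphine, and knockdown with morphine against scramble with saline changes virus and drug together. The promoter that drives the virus, the cells it reaches, the strain and the age of the mice, and whether each library is 1 mouse are unstated in the labels and notes used here. The p-values therefore reflect how far libraries of a group differ, and some of that may be technical.

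Cells meet misfolded protein with separate programs in separate compartments. In the ER, unfolded protein is sensed by the membrane proteins IRE1 (gene Ern1), PERK (Eif2ak3) and ATF6 (Atf6), which act through the transcription factors XBP1, ATF4 and cleaved ATF6 to raise ER chaperones such as BiP (Hspa5) and the machinery that exports damaged proteins for degradation. In the cytosol, the factor HSF1 is released from chaperones under stress and induces Hspa1a, Hspa1b, Hsph1, Dnajb1 and Bag3, while Hspa8 and Hsp90ab1 are made at high levels in unstressed cells. Neurons carry a heavy load of secreted and membrane proteins, and synaptic vesicle recycling needs the cytosolic HSC70 (Hspa8) with its co-chaperones.

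Some promoters of each arm hold the response element of that arm, and these sites are shown as sequence features of the genes that carry them. RefSeq promoter windows (assembly GRCm38.p6, 250 bases before to 50 after each start) were matched by symbol for 32 of the 39 genes, 21 ER, 9 cytosolic and 2 mitochondrial. The ER stress response element (ERSE), searched by its consensus on both strands, was found in 8 of the 21 ER genes with a window and in 0 of the 9 cytosolic genes, against 0.119% of all 32851 windows. Written 5′ to 3′ in the direction of the element, with its fixed letters in capitals, the sites were:
Hspa5, chr2:34772025-34772043, plus strand: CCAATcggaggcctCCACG
Calr, chr8:84847075-84847093, plus strand: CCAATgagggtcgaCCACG
Hsp90b1 (site 1), chr10:86705638-86705656, minus strand: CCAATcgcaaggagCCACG
Hsp90b1 (site 2), chr10:86705533-86705551, plus strand: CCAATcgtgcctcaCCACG
Canx, chr11:50325800-50325818, minus strand: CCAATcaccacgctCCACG
Pdia6, chr12:17266491-17266509, plus strand: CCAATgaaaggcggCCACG
Dnajc3, chr14:118937827-118937845, plus strand: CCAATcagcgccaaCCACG
Creld2, chr15:88819520-88819538, minus strand: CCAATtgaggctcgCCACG
Syvn1, chr19:6046532-6046550, plus strand: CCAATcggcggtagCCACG
The sites of Calr and Creld2 and site 2 of Hsp90b1 lie on the strand opposite to the gene. The related element ERSE-II, searched in the same way, was found in Herpud1 and Dnajb11 and in 0.0365% of all windows. Herpud1 also held an amino acid response element of the ATF4 pathway (found in 3.97% of windows), as did Trib3. The 250 bases before the Herpud1 start (chr8:94386179-94386428, plus strand) are printed as the promoter that holds elements of both pathways, with the ERSE-II letters in capitals:
Herpud1: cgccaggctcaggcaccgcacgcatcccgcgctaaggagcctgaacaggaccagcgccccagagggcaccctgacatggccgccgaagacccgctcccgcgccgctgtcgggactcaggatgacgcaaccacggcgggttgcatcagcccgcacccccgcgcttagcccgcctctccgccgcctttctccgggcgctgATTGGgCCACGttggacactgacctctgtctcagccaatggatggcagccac

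The heat shock element, searched by its consensus on both strands, was found in Hsph1, Chordc1, Hspd1 and Hspe1. These were 2 of the 9 cytosolic and 2 of the 2 mitochondrial genes with a window. The element was found in 0 of 21 ER genes with a window and in 0.603% of all windows. Its sites, with the fixed letters in capitals, were:
Hsph1, chr5:149636288-149636300, plus strand: GAActTTCcaGAA
Chordc1 (site 1), chr9:18292263-18292275, plus strand: GAAcgTTCggGAA
Chordc1 (site 2), chr9:18292268-18292280, minus strand: GAAttTTCccGAA
Chordc1 (site 3), chr9:18292273-18292285, plus strand: GAAaaTTCctGAA
Hspe1 and Hspd1 (site 1), chr1:55088059-55088071, minus strand: GAAggTTCtaGAA
Hspe1 and Hspd1 (site 2), chr1:55088064-55088076, plus strand: GAAccTTCcgGAA
Hspd1 and Hspe1 encode the mitochondrial chaperonin HSP60 and its lid HSP10, and are read in opposite directions from neighbouring starts. The 2 RefSeq starts of Hspd1 lie 95 and 216 bases from that of Hspe1. The same pair of overlapping sites falls in the Hspe1 window and in the Hspd1 window of the start 216 bases away. It does not fall in the window of the Hspd1 start 95 bases away. A match of letters is a description of the window, not evidence of binding.

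Libraries held between 41483220 and 65739423 counts. The RNA that the virus targets, Htr6, averaged 4.77 ± 0.76 CPM (SD, n = 4), counts per scaled library size, with knockdown and morphine, 5.21 ± 0.32 with scramble and morphine and 6.17 ± 1.60 with scramble and saline. The edgeR adjusted p was 0.823 between knockdown and scramble with morphine, and 0.999 and 0.56 for the comparisons with saline of scramble morphine and of the knockdown, so Htr6 does not check the labels. The ribosomal RNA locus CT010467.1 took 6.46 ± 2.16% of a library with the knockdown, 2.71 ± 0.29% with scramble and morphine and 4.57 ± 0.84% with scramble and saline (SD, n = 4). Markers of cortical neurons and glia were present, and 0 of the 12 marker lists had a marker at 0 in every library, blood and choroid plexus included. The knockdown libraries were the most spread out: over all genes the median coefficient of variation was 17.6% within the knockdown group, 12.2% within scramble morphine and 13.8% within saline, and over the 39 genes it was 11.1, 5.69 and 6.93% in the same groups.

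The cytosolic chaperones were the most abundant. Per kilobase of exon, the mean level over all 12 libraries was 487 CPM for Hsp90ab1, the constitutive cytosolic HSP90. Hspa8, the constitutive HSC70, followed at 278 CPM per kb and Hsp90aa1, the inducible HSP90, at 226. The highest ER genes were the calcium-binding chaperone Calr at 98.4 CPM per kb, the ER paralog of HSP90, Hsp90b1, at 74.1, and the membrane lectin Canx at 65.9. Hspa5 stood at 51.96 CPM per kb. At the low end were Hspa1a and Hspa1b, the stress-inducible HSP70 genes, at 4.77 and 4.60 CPM per kb, the HSP70 co-chaperone Bag3 at 3.32, the sensor Ern1 at 2.26 and the pseudokinase Trib3, an ATF4 and CHOP target, at 0.367. Hspa8 stood 59.4 ± 34.7 times above Hspa1a per kb in the knockdown libraries, 73.7 ± 6.97 times in scramble morphine and 59.4 ± 13.5 times in saline (SD, n = 4), so the inducible gene was far below its constitutive relative in every library. Hspa1a and Hspa1b are near-identical copies, and the split of reads between them is uncertain.

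**Figure D1:**
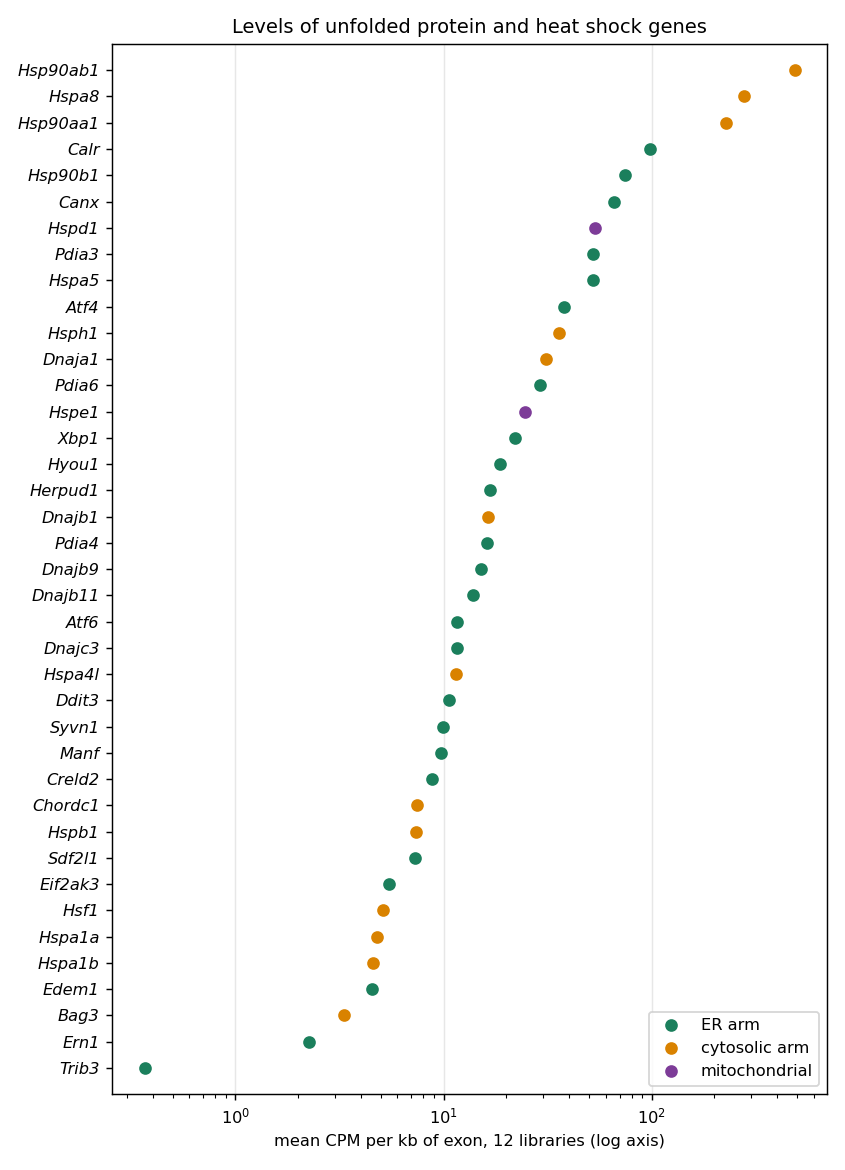
Mean level of each gene over 12 libraries, in CPM per kilobase of exon on a log axis, coloured by compartment. The cytosolic Hsp90ab1, Hspa8 and Hsp90aa1 lie above every ER gene, and Trib3 is lowest at 0.367 CPM per kb.

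No gene of the 39 passed the test in any comparison. At an adjusted p under 0.05 the edgeR quasi-likelihood test called 0 of the 39 between knockdown and scramble with morphine, where 0% of all genes were called. It called 0 for scramble morphine against saline, where again 0% of all genes were called, and 0 for the knockdown against saline, where 0.0137% were. DESeq2 and limma voom also called 0 of the 39 in each comparison. The smallest edgeR adjusted p among the 39 was 0.327, 0.999 and 0.314 in the same order of comparisons. Differences below are therefore given as values, and the threshold of an unadjusted p under 0.05 serves only to say which genes are described.

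With the knockdown, set against scramble with morphine, 9 of the 39 lay under that unadjusted threshold, 8 above 0 and 1 below, where 5.87% of all genes lay under it above 0 and 6.17% below. These were the sensors Ern1 and Atf6, the factors Ddit3 and Hsf1, the ER genes Pdia4, Syvn1 and Edem1 and the HSP70 co-chaperones Dnajb1 and Bag3. The 4 knockdown libraries lay above all 4 scramble morphine libraries for Ern1 and Atf6, and 2.59% of all genes did so. With morphine, set against saline under the scramble virus, 1 of the 39 lay under the unadjusted threshold, Calr, above 0, where 1.67% of all genes did so above 0 and 1.82% below. Calr, Hspa5, Hsp90b1 and Pdia3, all ER folding proteins, lay higher in all 4 morphine libraries than in any saline library, as did 1.55% of all genes. With knockdown and morphine, set against scramble and saline, 10 of the 39 lay under the threshold and all 10 above 0, where 4.97% of all genes lay under it above 0 and 4.37% below. Calr and Chordc1 had no overlap between these groups, as had 2.18% of all genes in that direction. In the other direction 0 of the 39 lay apart without overlap in each of the 3 comparisons, where 3.26, 1.77 and 2.16% of all genes did. The comparisons share libraries and are not independent of each other.

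**Figure D2:**
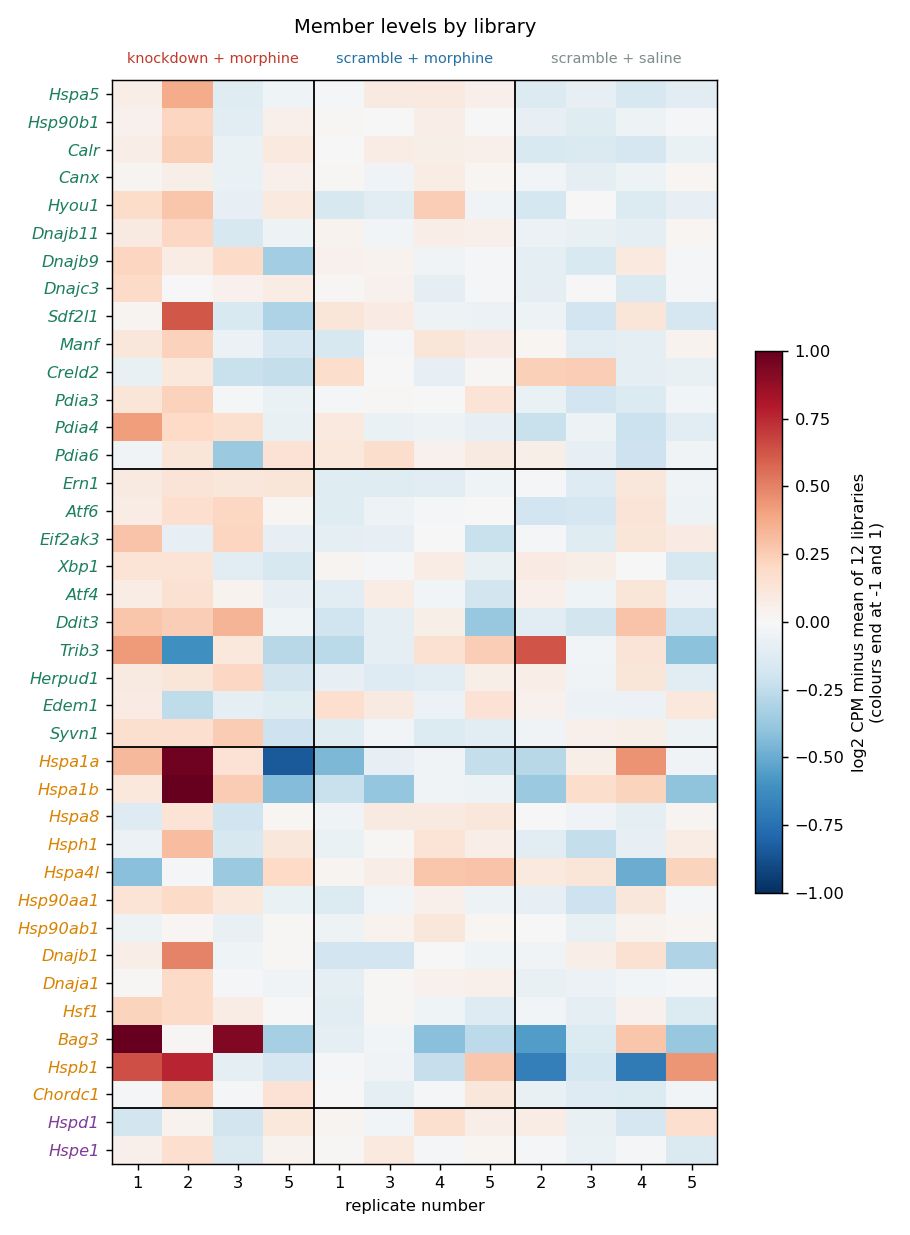
Level of each gene in each library as log2 CPM minus its mean over the 12 libraries, with knockdown left, scramble morphine in the middle and saline right. Gene names are green for ER, orange for cytosolic and purple for mitochondrial genes, and colours end at -1 and 1. Knockdown replicate 2 is the highest library for 20 of the 39 genes.

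Among the main ER chaperones, the saline libraries lay low and the knockdown libraries scattered widely. Hspa5, the ER HSP70 that also holds the sensors inactive, stood at 228, 282, 201 and 212 CPM with knockdown and morphine, 216, 233, 234 and 226 CPM with scramble and morphine, and 199, 207, 196 and 202 CPM with scramble and saline. Knockdown replicate 2 was the highest of the 12 libraries, the other 3 knockdown libraries lay between 201 and 228 CPM, and every scramble morphine library lay above every saline library. The Hspa5 log2 fold change was 0.025 (SE 0.084, adjusted p = 0.941) for knockdown against scramble with morphine, 0.18 (SE 0.084, adjusted p = 0.999) for morphine against saline and 0.20 (SE 0.084, adjusted p = 0.482) for the knockdown against saline. Without knockdown replicate 2 the knockdown stood at -0.087 against scramble morphine and at 0.089 against saline.

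Hsp90b1, the ER HSP90 also called GRP94, gave 306, 347, 276 and 309 CPM in the knockdown libraries, 300.4, 297, 312 and 299 CPM in the scramble morphine libraries and 281, 274, 288 and 294 CPM in the saline libraries. It followed the same order as Hspa5, with knockdown replicate 2 highest and no overlap between the scramble groups, at a log2 fold change of 0.088 (SE 0.064) for morphine against saline. Calr, calreticulin, a lectin chaperone of glycoproteins, stood at 297, 333, 271 and 303 CPM with knockdown and morphine, 283, 298, 294 and 293 CPM with scramble and morphine, and 254, 255, 252 and 269 CPM with scramble and saline. All morphine libraries of either virus lay above all saline libraries. Its log2 fold change was 0.18 (SE 0.062, adjusted p = 0.999) for scramble morphine against saline and 0.22 (SE 0.062, adjusted p = 0.339) for the knockdown against saline. Between knockdown and scramble with morphine it was 0.042 (SE 0.062), and the fold had a 95% interval of 0.935 to 1.13.

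Hyou1, the large ER HSP70 relative that exchanges nucleotide on BiP, gave 152, 162, 126 and 143 CPM in the knockdown libraries, 119.7, 124, 158 and 131 CPM in the scramble morphine libraries and 118, 133, 122 and 126 CPM in the saline libraries. Knockdown replicates 1 and 2 and scramble morphine replicate 4 stood highest, and its log2 fold change against saline was 0.22 (SE 0.090, adjusted p = 0.468) with the knockdown. Dnajc3, the ER co-chaperone P58IPK, stood at 67.7, 59.02, 61.1 and 62.3 CPM with knockdown and morphine, 59.5, 60.9, 55.8 and 58.5 CPM with scramble and morphine, and 55.3, 59.4, 53.5 and 58.6 CPM with scramble and saline, and all 3 groups overlapped. Sdf2l1, an ER stress-induced partner of BiP, gave 8.14, 12.3, 7.18 and 6.44 CPM in the knockdown libraries, 8.69, 8.42, 7.71 and 7.63 CPM in the scramble morphine libraries and 7.70, 6.98, 8.68 and 7.10 CPM in the saline libraries. Only knockdown replicate 2 stood apart, and the mean ± SD was 8.50 ± 2.60 CPM with the knockdown, 8.11 ± 0.523 with scramble and morphine and 7.62 ± 0.775 with saline (n = 4 each).

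The disulfide isomerases form and reshuffle disulfide bonds in the ER. Pdia4 stood at 51.5, 44.3, 43.2 and 36.7 CPM with knockdown and morphine, 41.3, 36.95, 37.3 and 36.4 CPM with scramble and morphine, and 33.1, 37.2, 33.2 and 35.6 CPM with scramble and saline. Knockdown replicate 1 was highest and knockdown replicate 5 lay within both scramble groups. Its log2 fold change of 0.34 (SE 0.090, adjusted p = 0.314) for the knockdown against saline had the smallest adjusted p of the 39 genes. For knockdown against scramble with morphine it was 0.21 (SE 0.090, adjusted p = 0.384). Pdia3, which works with calreticulin and calnexin on glycoproteins, gave 177, 191, 161 and 156 CPM in the knockdown libraries, 162, 164, 163 and 179 CPM in the scramble morphine libraries and 155, 143, 148 and 160.1 CPM in the saline libraries. The scramble morphine libraries all lay above saline, while knockdown replicate 5 lay within the saline range, and the log2 fold change was 0.14 (SE 0.069) for morphine against saline and 0.18 (SE 0.069, adjusted p = 0.441) for the knockdown against saline. Pdia6 had log2 fold changes of -0.13 (SE 0.095) with the knockdown against scramble morphine and 0.17 (SE 0.095) with morphine against saline.

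Grouped by role after the values were seen, the 14 ER folding proteins lay above 0 in 13 of 14 cases for morphine against saline, their median being 0.089 on the log2 scale, where 49.5% of all genes lay above 0 with a median of -0.0012. Summed over the 14, the knockdown libraries held 1653 to 2017 CPM, scramble morphine libraries 1748 to 1832 CPM and saline libraries 1617 to 1701 CPM, and the scramble groups did not overlap. The 10 sensors, factors and degradation genes had 3 of 10 above 0 in the same comparison, with a median of -0.082. In these libraries meningeal fibroblast markers also stood higher with morphine, 6 of 6 above 0, with a summed level of 72.9 to 132 CPM with scramble and morphine and 59.8 to 103 CPM with saline, as did 6 of 6 astrocyte markers, at 3687 to 4324 CPM with morphine and 2678 to 4431 CPM with saline. Blood markers lay above 0 in 0 of 5 cases with a median of -0.73, at 118 to 187 CPM with morphine and 96.9 to 415 CPM with saline, and endothelial markers in 1 of 6, at 194 to 231 CPM with morphine and 213 to 287 CPM with saline. These summed levels overlapped, while the CT010467.1 share did not, at 2.38 to 3.04% with scramble and morphine and 3.58 to 5.63% with scramble and saline. The part of any of these in the chaperone levels was not tested. In tissue RNA, fewer cells of a type and less RNA per cell cannot be told apart.

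With the knockdown, the sensors lay above scramble morphine. Ern1, whose product IRE1 splices Xbp1 mRNA, stood at 19.7, 20.2, 19.9 and 20.005 CPM with knockdown and morphine, 16.9, 16.99, 17.1 and 17.9 CPM with scramble and morphine, and 18.3, 16.8, 19.9 and 17.98 CPM with scramble and saline. The knockdown libraries differed by little among themselves and lay above all scramble morphine libraries, but overlapped saline. The log2 fold change was 0.21 (SE 0.075, adjusted p = 0.327) for knockdown against scramble with morphine, and between 0.20 and 0.23 with each library left out. Atf6, whose product is cut to a transcription factor in the Golgi, gave 112, 120.1, 124 and 108 CPM in the knockdown libraries, 97.9, 103, 106 and 107 CPM in the scramble morphine libraries and 93.7, 94.9, 116 and 103 CPM in the saline libraries. The lowest knockdown library lay just above the highest scramble morphine library, and the log2 fold change was 0.16 (SE 0.073, adjusted p = 0.388). Eif2ak3, encoding PERK, the kinase that halts translation, was at 0.19 (SE 0.094) and its groups overlapped. All 3 sensors lay above 0 in this comparison and against saline, where Atf6 was at 0.18 (SE 0.073), Ern1 at 0.13 (SE 0.075) and Eif2ak3 at 0.076 (SE 0.094).

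The factors downstream of the sensors differed from one another. Xbp1, the target of IRE1, stood at 78.7, 78.7, 66.003 and 63.7 CPM with knockdown and morphine, 72.8, 70.8, 75.2 and 67.8 CPM with scramble and morphine, and 75.5, 74.2, 71.7 and 63.7 CPM with scramble and saline. Its groups overlapped fully, with a 95% interval of the fold from 0.884 to 1.13 for knockdown against scramble with morphine. Counts per gene do not show how much of it was spliced. Atf4, translated when PERK is active, gave 93.4, 98.9, 90.9 and 83.7 CPM in the knockdown libraries, 82.2, 93.6, 87.003 and 77.98 CPM in the scramble morphine libraries and 92.004, 86.2, 96.6 and 85.4 CPM in the saline libraries, again with overlap and a log2 fold change of 0.11 (SE 0.071) for knockdown against scramble with morphine. Ddit3, encoding CHOP, a factor of prolonged ER stress, stood at 21.7, 21.2, 22.6 and 17.4 CPM with knockdown and morphine, 15.6, 16.8, 18.6 and 13.7 CPM with scramble and morphine, and 16.6, 15.7, 21.8 and 15.6 CPM with scramble and saline. Knockdown replicates 1, 2 and 3 lay above all scramble morphine libraries and knockdown replicate 5 among them, while saline replicate 4 stood apart from the other saline libraries. Its log2 fold change was 0.36 (SE 0.13, adjusted p = 0.327) for knockdown against scramble with morphine and 0.25 (SE 0.13) against saline. Exons of Ddit3 overlap those of Mars on the opposite strand, and whether counting used the strand is not stated in the labels or notes.

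Genes of ER-associated degradation went both ways with the knockdown. Syvn1, the ubiquitin ligase HRD1, gave 53.7, 54.05, 57.2 and 41.6 CPM in the knockdown libraries, 44.2, 47.04, 43.8 and 44.8 CPM in the scramble morphine libraries and 46.9, 49.7, 49.97 and 46.4 CPM in the saline libraries. Knockdown replicates 1, 2 and 3 were the highest of all 12 libraries and replicate 5 the lowest, at a log2 fold change of 0.20 (SE 0.084, adjusted p = 0.373) against scramble with morphine. Without replicate 5 it was 0.29 with an edgeR adjusted p of 0.0313, the single call among the 39 with any library left out. In that fit 375 of 22537 genes were called. Exons of Syvn1 overlap those of Mrpl49 on the opposite strand, and the strand setting of the counting is not stated. Edem1, a lectin that picks glycoproteins for degradation, stood at 30.9, 24.6, 27.5 and 26.9 CPM with knockdown and morphine, 32.9, 31.2, 28.2 and 32.3 CPM with scramble and morphine, and 30.2, 28.1, 28.1 and 31.5 CPM with scramble and saline. It was the gene below 0 among the 9, at -0.18 (SE 0.082, adjusted p = 0.398), and its groups overlapped. Herpud1, a partner of HRD1 whose promoter is printed above, was at 0.13 (SE 0.085).

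**Figure D3:**
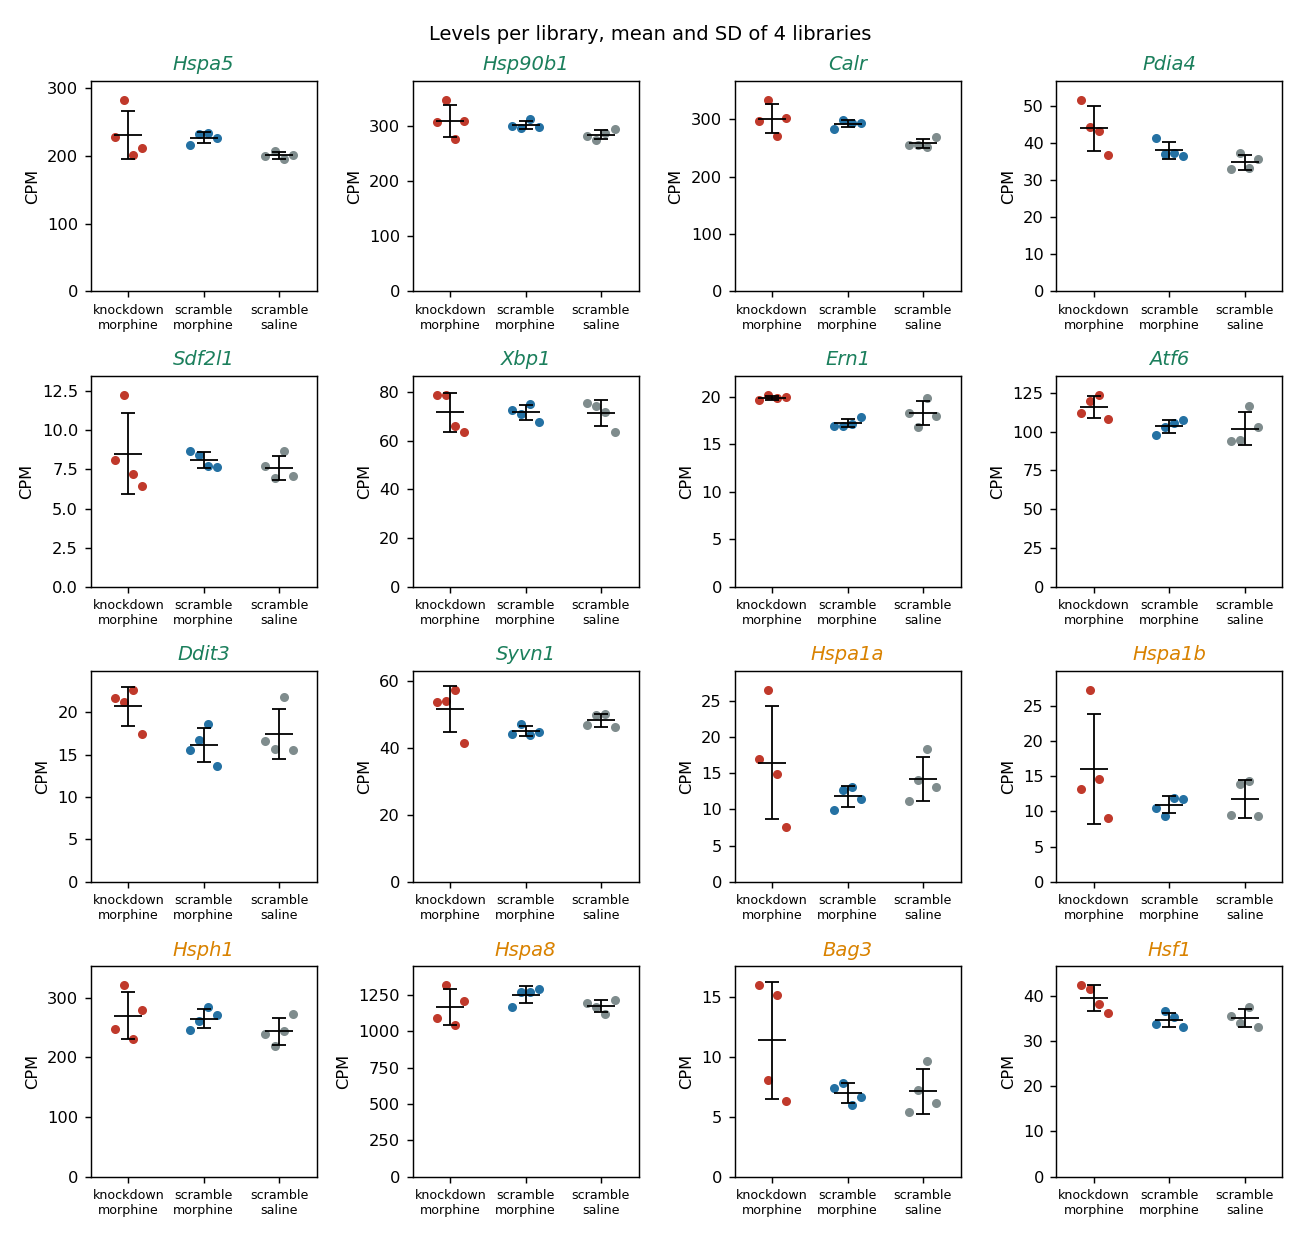
Levels in CPM of 16 genes in each library, with the mean and SD of each group of 4; green titles are ER genes and orange titles cytosolic genes. Ern1 and Atf6 show knockdown libraries above all scramble morphine libraries, and Calr, Hspa5 and Hsp90b1 show both scramble groups apart.

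Among cytosolic genes, Bag3, Hspa1b, Hspa1a and Hspb1 had the widest spread, with coefficients of variation of 41.1, 38.5, 34.4 and 32.6% over the 12 libraries. They also had the lowest mean levels of these genes, 7.56 to 14.2 CPM. The inducible Hsph1 and Dnajb1 stood at 10.7 and 15.1%, below Hspa4l at 17.7%. For Bag3, Hspa1a and Hspa1b the spread lay mostly within the knockdown group, while the SD of Hspb1 was 3.01 CPM with the knockdown and 2.52 CPM with saline. Hspa1a stood at 16.9, 26.5, 14.9 and 7.55 CPM with knockdown and morphine, 9.90, 12.7, 13.2 and 11.4 CPM with scramble and morphine, and 11.1, 14.1, 18.4 and 13.1 CPM with scramble and saline. The knockdown group held both the highest and the lowest of the 12 libraries, replicates 2 and 5. Hspa1b gave 13.2, 27.2, 14.6 and 9.08 CPM in the knockdown libraries, 10.5, 9.41, 11.97 and 11.8 CPM in the scramble morphine libraries and 9.47, 13.8, 14.3 and 9.29 CPM in the saline libraries, with the same libraries at either end. Log2 fold changes against scramble morphine were 0.48 (SE 0.29) for Hspa1a and 0.55 (SE 0.28) for Hspa1b, with intervals of the fold from 0.880 to 2.20 and from 0.950 to 2.25. Exons of Hspa1a also overlap a predicted gene on the opposite strand.

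Hsph1, the HSP110 that exchanges nucleotide on cytosolic HSP70, gave 248, 321, 231 and 279 CPM in the knockdown libraries, 247, 260.4, 284 and 271 CPM in the scramble morphine libraries and 239, 219, 244 and 272 CPM in the saline libraries. Hspa8 stood at 1094, 1316, 1041 and 1212 CPM with knockdown and morphine, 1165, 1272, 1274 and 1293 CPM with scramble and morphine, and 1197, 1167, 1121 and 1219 CPM with scramble and saline. For both genes knockdown replicate 2 was the highest and replicate 3 among the lowest, and all groups overlapped. Log2 fold changes with the knockdown against scramble morphine were 0.024 (SE 0.093) for Hsph1 and -0.10 (SE 0.072) for Hspa8.

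The cytosolic members under the unadjusted threshold in any comparison were Hsf1, the HSP70 co-chaperones Bag3 and Dnajb1, and Chordc1. Hsf1 stood at 42.2, 41.5, 38.1 and 36.2 CPM with knockdown and morphine, 33.7, 36.5, 35.2 and 33.1 CPM with scramble and morphine, and 35.5, 34.01, 37.4 and 33.01 CPM with scramble and saline. The knockdown libraries lay above all scramble morphine libraries but for replicate 5, at a log2 fold change of 0.19 (SE 0.071, adjusted p = 0.340), and of 0.17 (SE 0.071, adjusted p = 0.471) against saline. Bag3, which links HSP70 to autophagy, gave 15.96, 8.06, 15.1 and 6.36 CPM in the knockdown libraries, 7.44, 7.85, 5.97 and 6.65 CPM in the scramble morphine libraries and 5.42, 7.26, 9.67 and 6.14 CPM in the saline libraries. Knockdown replicates 1 and 3 stood at about the same level above all other libraries, replicate 2 lay above all scramble morphine libraries and within the saline range, replicate 5 lay within both scramble groups, and its log2 fold change of 0.70 (SE 0.27, adjusted p = 0.349) ran from 0.49 to 0.90 with each library left out. Replicate 2, the highest library for most cytosolic genes, was not the highest for Bag3.

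Dnajb1, the HSP40 that hands clients to HSP70, stood at 54.5, 73.5, 50.4 and 52.4 CPM with knockdown and morphine, 45.6, 45.6, 52.2 and 50.5 CPM with scramble and morphine, and 50.7, 54.4, 57.7 and 42.2 CPM with scramble and saline. Knockdown replicate 2 was again highest, at a group log2 fold change of 0.25 (SE 0.12, adjusted p = 0.413), and 0.11 without that library. Chordc1, an HSP90 co-chaperone, gave 55.2, 66.8, 55.2 and 61.96 CPM in the knockdown libraries, 55.9, 52.3, 55.4 and 60.5 CPM in the scramble morphine libraries and 53.2, 51.03, 50.9 and 54.998 CPM in the saline libraries. The knockdown libraries lay above all saline libraries, at a log2 fold change of 0.19 (SE 0.072, adjusted p = 0.438), and overlapped scramble morphine. Hspb1, the small HSP27, and the HSP110 relative Hspa4l were at 0.33 (SE 0.27) and -0.30 (SE 0.16) for knockdown against scramble with morphine.

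Of the mitochondrial chaperonin, Hspd1 stood at 123, 143, 123 and 150.4 CPM with knockdown and morphine, 142, 137, 157 and 147 CPM with scramble and morphine, and 147, 132, 124 and 157 CPM with scramble and saline. All groups overlapped, and the log2 fold changes were -0.11 (SE 0.084) for knockdown against scramble with morphine, 0.056 (SE 0.084) for morphine against saline and -0.054 (SE 0.084) for knockdown with morphine against saline. Hspe1, which shares its promoter region and has exons that overlap Hspd1 on the opposite strand, was at 0.0013 (SE 0.072), 0.087 (SE 0.072) and 0.088 (SE 0.072) in the same comparisons.

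Of the members at an unadjusted p of 0.05 or more, the 18 ER genes lay between -0.13 and 0.19 on the log2 scale for knockdown against scramble with morphine and the 10 cytosolic genes between -0.30 and 0.55. For morphine against saline these ranges were -0.11 to 0.18 over 23 ER genes and -0.27 to 0.21 over 13 cytosolic genes. For knockdown with morphine against saline they were -0.19 to 0.25 over 17 ER genes and -0.14 to 0.54 over 10 cytosolic genes. Standard errors of single genes ran from 0.053 to 0.32 in the first of these comparisons, so a difference of a few percent was not detectable. Larger differences also went uncalled there, such as Ddit3 at a fold of 1.28 (edgeR adjusted p = 0.327) and Bag3 at a fold of 1.63 (edgeR adjusted p = 0.349).

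**Figure D4:**
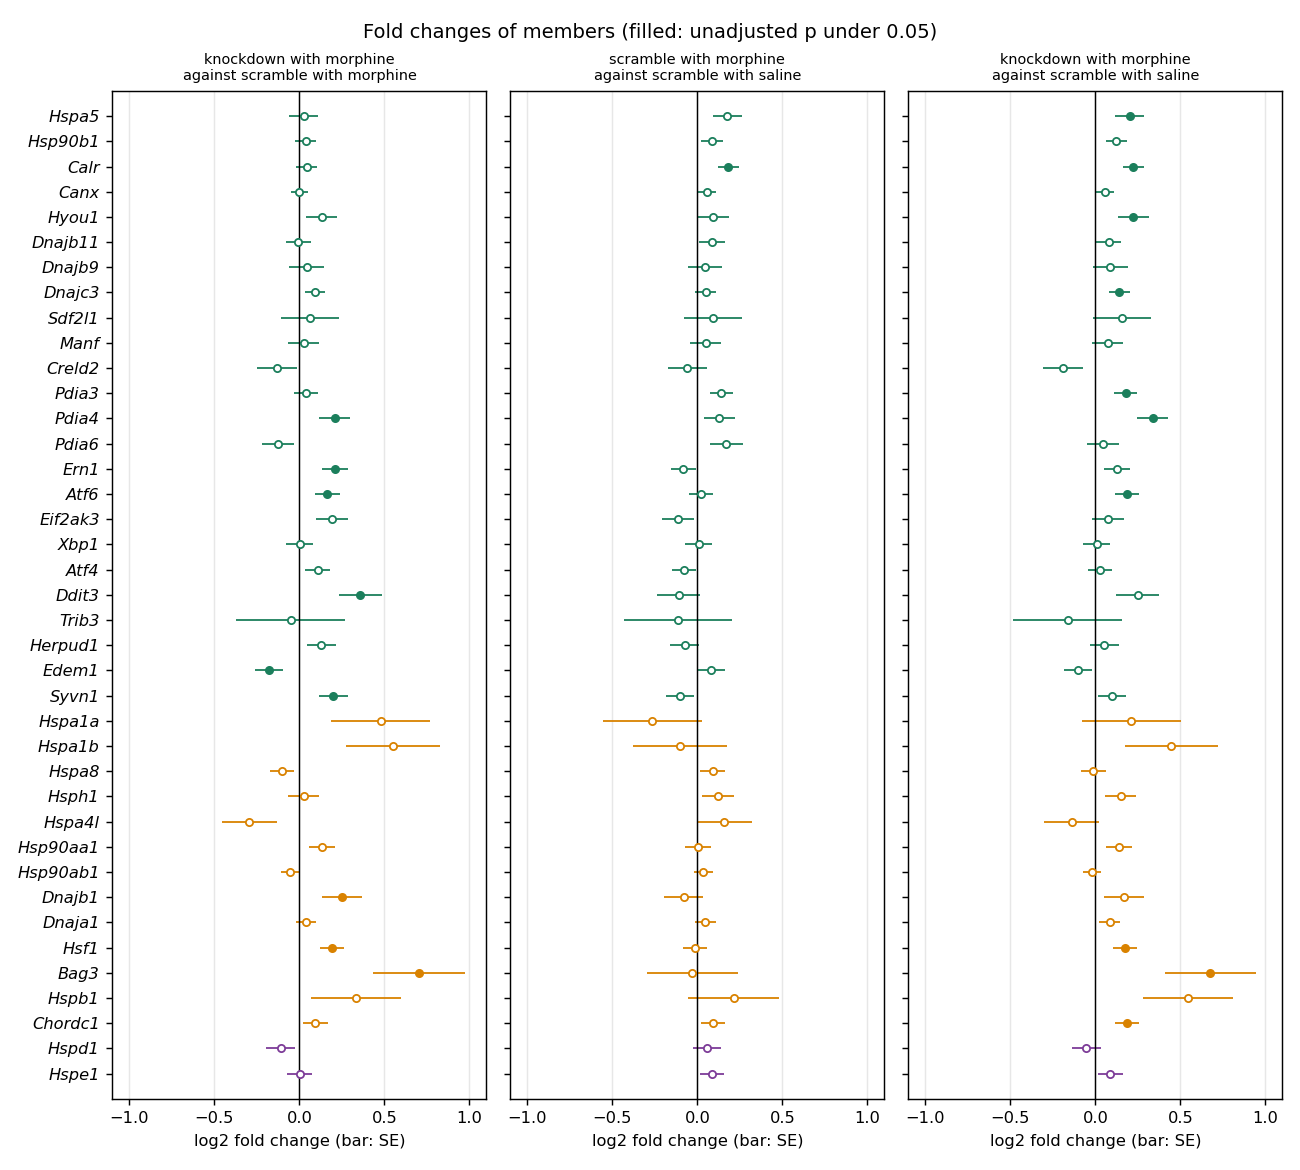
Log2 fold change of each gene in each comparison with bars for the SE, filled where the unadjusted p was under 0.05. Bars are widest for Hspb1, Hspa1a, Hspa1b, Bag3 and Trib3, and Bag3 lies at 0.70 and 0.67 in the knockdown comparisons.

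With TMM scaling, the medians of the ER and cytosolic arms lay between 0.035 and 0.17 on the log2 scale in the 3 comparisons, and those of all genes were 0.0040, -0.0012 and -0.0019. For knockdown against scramble with morphine, 19 of 24 ER genes lay above 0, their median being 0.043 on the log2 scale, and 10 of 13 cytosolic genes with a median of 0.13, where 50.7% of all genes lay above 0. For morphine against saline, 16 of 24 ER genes lay above 0, the median over all 24 being 0.049, and 8 of 13 cytosolic genes, the median over all 13 being 0.035, where 49.5% of all genes lay above 0. For knockdown with morphine against saline, 21 of 24 ER genes lay above 0 with a median of 0.093 and 10 of 13 cytosolic genes with a median of 0.17, where 49.6% of all genes lay above 0. Of 50 further ER stress genes described below, 27, 30 and 35 lay above 0 in these comparisons, with medians of 0.018, 0.018 and 0.029. Of 45 further heat shock genes, 13, 34 and 19 did, with medians of -0.054, 0.033 and -0.029. The difference between arms was not tested. The ER median of the first comparison was -0.026 with library totals as the only scaling, where the median of all genes was -0.063, and -0.11 with the share of CT010467.1 as a covariate.

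The same library stood highest in both arms. Knockdown replicate 2 was the highest of 12 for 10 of 24 ER genes and 9 of 13 cytosolic genes, and for 12.4% of all genes. Knockdown replicate 5 was the lowest for 6 ER and 2 cytosolic genes, and for 12.2% of all genes. As the median deviation of log2 CPM from the mean of all libraries, knockdown replicates 1, 2, 3 and 5 stood at 0.091, 0.16, -0.037 and -0.068 for ER genes and at 0.069, 0.19, -0.018 and -0.0038 for cytosolic genes. Without knockdown replicate 2 the ER median for knockdown against scramble with morphine was 0.011 and the cytosolic median 0.098. Against saline they were 0.069 and 0.053 without it. The ER sensors, factors and degradation genes, as grouped above, had another order of libraries: knockdown replicates 1, 2 and 3 stood at 0.12, 0.14 and 0.16 and replicate 5 at -0.10, with saline replicate 4 at 0.12.

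**Figure D5:**
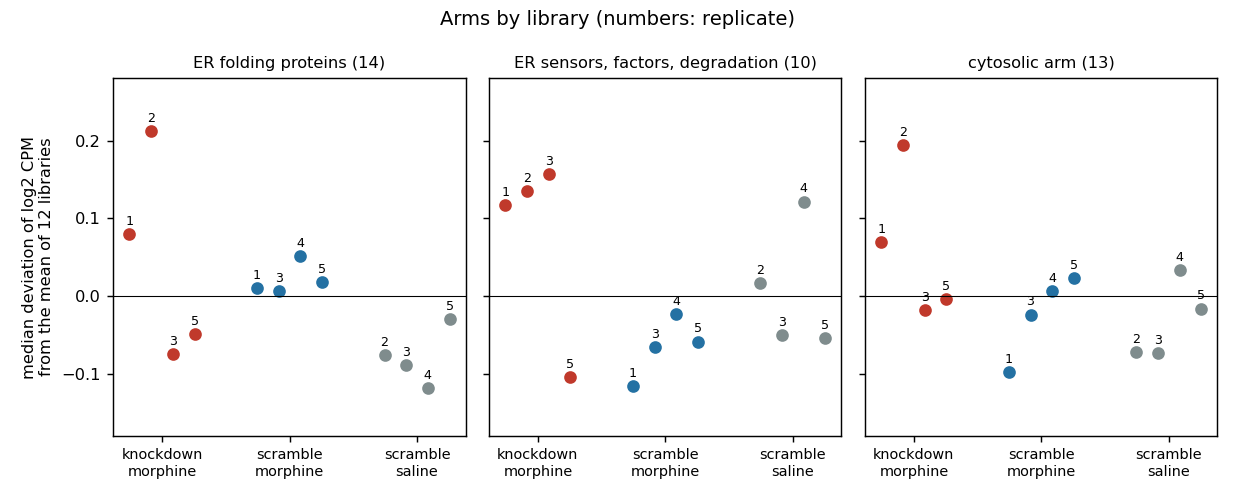
Median deviation of log2 CPM from the mean of 12 libraries for each set of genes, 1 point per library with its replicate number, knockdown left and saline right. Knockdown replicate 2 is highest for ER folding proteins (0.21) and for cytosolic genes (0.19), while for sensors, factors and degradation genes knockdown replicates 1, 2 and 3 lie together.

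Across the 12 libraries some genes varied together, among 8 pairs chosen for their roles and computed on log2 CPM with permutation p adjusted over the 8. The permutation ran over all 12 libraries without regard to group, and the libraries share scaling. Pairs of other genes were not computed, so the values do not tell whether varying together is particular to these genes. Hspa5 and Hsp90b1 had r = 0.87 (adjusted permutation p = 0.00344) and rho = 0.78 (adjusted permutation p = 0.0156). Hspa1a and Hspa1b, near-identical copies whose reads may be split between them, had r = 0.86 (adjusted permutation p = 0.00232) and rho = 0.85 (adjusted permutation p = 0.0076). Between arms, Hspa5 and Hsph1 had r = 0.75 (adjusted permutation p = 0.0152) and rho = 0.69 (adjusted permutation p = 0.045), and Hspa5 and Hspa8 had r = 0.61 (adjusted permutation p = 0.0499) and rho = 0.62 (adjusted permutation p = 0.0639).

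The remaining pairs were mixed, and the adjusted permutation p of rho was above 0.05 in each. Hspa5 and Sdf2l1 had r = 0.73 (adjusted permutation p = 0.0389) but rho = 0.38 (adjusted permutation p = 0.289). Hspa5 and Pdia4 had r = 0.50 (adjusted permutation p = 0.137) and rho = 0.61 (adjusted permutation p = 0.0639). Hsph1 and Dnajb1 had r = 0.37 (adjusted permutation p = 0.276) and rho = 0.077, and Hsp90aa1 and Hsp90ab1 had r = 0.24 (adjusted permutation p = 0.458) and rho = 0.28. Without the 2 libraries farthest from the median of the first gene, r was 0.71 for Hspa5 and Hsp90b1, 0.68 for Hspa1a and Hspa1b, 0.48 for Hspa5 and Hsph1, 0.44 for Hspa5 and Hspa8, 0.52 for Hspa5 and Sdf2l1 and 0.29 for Hspa5 and Pdia4, and no pair kept an adjusted permutation p under 0.05 (smallest 0.133). On deviations from group means, r was 0.82 for Hspa5 and Hsp90b1, 0.87 for Hspa1a and Hspa1b, 0.77 for Hspa5 and Sdf2l1, 0.76 for Hspa5 and Hspa8, 0.67 for Hspa5 and Hsph1, 0.22 for Hspa5 and Pdia4, 0.38 for Hsph1 and Dnajb1 and 0.55 for Hsp90aa1 and Hsp90ab1. The adjusted permutation p of r on these deviations was 0.174 at its smallest. By rank most of these values were lower. On the same deviations rho was 0.27 for Hspa5 and Hsp90b1, 0.28 for Hspa5 and Sdf2l1, 0.43 for Hspa5 and Hspa8 and 0.35 for Hspa5 and Hsph1. It was 0.74 for Hspa1a and Hspa1b, 0.34 for Hspa5 and Pdia4, 0.25 for Hsph1 and Dnajb1 and 0.58 for Hsp90aa1 and Hsp90ab1.

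Other genes of these pathways were counted in the same fit. Of 50 further ER stress genes and 45 further heat shock genes, 0 of each passed the edgeR test in any comparison, and the threshold of an unadjusted p under 0.05 was again used only to describe. For knockdown against scramble with morphine, 4 ER stress genes lay under it above 0 and 4 below, and 0 heat shock genes above and 6 below, where 5.87% of all genes did so above 0 and 6.17% below. For morphine against saline the counts were 1 above and 1 below for ER stress genes and 2 above and 0 below for heat shock genes, where the shares of all genes were 1.67 and 1.82%. For knockdown with morphine against saline they were 3 above and 1 below for ER stress genes and 4 above and 4 below for heat shock genes, where the shares were 4.97 and 4.37%. The stress-induced factor Atf3 stood at 1.79 to 5.66 CPM with knockdown and morphine and 0.915 to 1.62 CPM with scramble and morphine, without overlap, at a log2 fold change of 1.57 (SE 0.37, edgeR adjusted p = 0.248). DESeq2 called it, and so did edgeR without knockdown replicate 5. Ppp1r15a, the phosphatase subunit GADD34 that ends the PERK signal, stood at 12.7 to 16.01 CPM with the knockdown and 9.45 to 11.9 CPM with scramble and morphine, at 0.44 (SE 0.14). Sil1, a nucleotide exchange factor of BiP, was below 0 at -0.20 (SE 0.08).

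Further heat shock genes lay mostly below 0 with the knockdown: 13 of 45 were above 0 against scramble morphine, with a median of -0.054. Hspa14, a ribosome-bound HSP70, stood at 17.5 to 22.5 CPM with the knockdown and 23.5 to 25.4 CPM with scramble and morphine, at -0.36 (SE 0.09, edgeR adjusted p = 0.264). Dnaja3 and Trap1, mitochondrial chaperones, were at -0.20 (SE 0.07) and -0.22 (SE 0.08). For morphine against saline 34 of 45 were above 0 with a median of 0.033. The HSP90 co-chaperone Ptges3 stood at 43.2 to 50.3 CPM with morphine and 35.8 to 43.1 CPM with saline, at 0.25 (SE 0.09), and Fkbp5, a glucocorticoid-induced HSP90 co-chaperone, was at 0.35 (SE 0.15). Among ER stress genes in that comparison Derl3, an ER degradation factor at 1.19 ± 0.28 CPM with morphine and 2.19 ± 0.64 CPM with saline (SD, n = 4), was at -0.89 (SE 0.38), Nupr1 at 0.46 (SE 0.20) and Phgdh, a serine synthesis gene under ATF4, at 0.26 (SE 0.12). For knockdown with morphine against saline, Serpinh1, the ER chaperone of collagen, stood at 21.9 to 29.2 CPM with the knockdown and 17.2 to 21.2 CPM with saline, at 0.43 (SE 0.15, edgeR adjusted p = 0.381). Hspa14, with a smaller p, stood at 17.5 to 22.5 CPM with the knockdown and 22.4 to 26.4 CPM with saline, at -0.31 (SE 0.09, edgeR adjusted p = 0.350), and Dnaja3 was at -0.22 (SE 0.07, edgeR adjusted p = 0.379). Of the ER stress genes in that comparison, Creb3l2, a membrane-bound factor related to ATF6, was at 0.36 (SE 0.14), Sil1 at -0.21 (SE 0.08) and Atf3 at 0.88 (SE 0.36), at 1.79 to 5.66 CPM with the knockdown and 1.2999 to 3.32 CPM with saline, with overlap.

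Markers of other cells were read in the same libraries. Against scramble morphine, markers of endothelium, pericytes and smooth muscle, and meningeal fibroblasts lay above 0 in 6 of 6 cases each, with summed levels of 221 to 300.1, 207 to 291 and 113 to 187 CPM with the knockdown and of 194 to 231, 200.5 to 245 and 72.9 to 132 CPM with scramble and morphine. Oligodendrocyte markers lay above 0 in 0 of 6 cases, at 1143 to 1962 CPM with the knockdown and 1784 to 2436 CPM with scramble and morphine, and microglial markers in 1 of 6, at 378 to 565 CPM with the knockdown and 468 to 681 CPM with scramble and morphine. These 5 summed levels overlapped between the groups. Those of striatal neurons did not, at 98.1 to 116 CPM with the knockdown and 125.02 to 149 CPM with scramble and morphine with 3 of 6 markers above 0, nor did those of oligodendrocyte precursors, at 79.8 to 92.7 CPM with the knockdown and 71.9 to 78.01 CPM with scramble and morphine with 2 of 2 above 0. Against saline, meningeal fibroblast markers lay above 0 with the knockdown in 6 of 6 cases with a median of 0.85, at 113 to 187 CPM with the knockdown and 59.8 to 103 CPM with saline, without overlap. Oligodendrocyte markers did so in 0 of 6 cases, at 1143 to 1962 CPM with the knockdown and 1690 to 2217 CPM with saline, and the summed striatal markers again had no overlap, at 98.1 to 116 CPM with the knockdown and 129 to 154 CPM with saline. None of these lists had a marker at 0 in every library, and their part in the differences above was not tested. With the share of CT010467.1 as a covariate, 0 of the 39 genes had an unadjusted p under 0.05 for knockdown against scramble with morphine, in place of 9. Of all 21958 genes tested, 1130 did, in place of 2643. The share did not overlap between these groups, at 4.57 to 9.38% with the knockdown and 2.38 to 3.04% with scramble and morphine. This fit therefore separates the share from the group only poorly. Its SE was 0.15 in place of 0.073 for Atf6 and 0.17 in place of 0.084 for Syvn1.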

How the data were processed

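RNA-seq was done on mPFC tissue of 12 mouse libraries, 4 in each of 3 groups, with groups from the labelled treatment and replicate numbers from the titles. Per the labels' protocols, RNA with a RIN over 7 was purified on oligo(dT) beads and made into paired-end libraries with a dUTP-marked strand. The authors deposited whole-number counts per gene, without normalized values. The submitters' processing notes list cutadapt 1.9, StringTie 1.3.4d, HISAT2 2.0.4, edgeR and DESeq2 with the build mm10, and no roles. How genes were counted, on which annotation and with which strand setting is not stated there, so genes with near-identical copies (Hspa1a and Hspa1b, and chaperones with processed pseudogenes) and the 12 members whose exons overlap a gene on the opposite strand are uncertain.

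Symbols matched 55141 of 55401 gene IDs. Exon lengths came from GENCODE release M21 and promoter windows from RefSeq, GRCm38.p6. The consensus patterns searched in these windows (ERSE, ERSE-II, heat shock element, amino acid response element) came from general knowledge and from no deposited file, and only the matched sites are printed. The counts went into edgeR 4.0.16 (R 4.3.3): filterByExpr with its minimum of 10 counts, TMM scaling, and a robust quasi-likelihood fit with 1 mean per group over all 12 libraries (biological coefficient of variation 23.2%, residual degrees of freedom 9). Tests are two-sided, with Benjamini-Hochberg adjustment over all genes tested and a threshold of 0.05. Fold intervals are 95%. Depth ran from 41483220 to 65739423 counts per library, so the spread between libraries, not counting, limits most values. The steps were tested on simulated counts.

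Values in every library are given for 11 members chosen for their role and for members with an unadjusted p under 0.05 in at least 1 comparison. Of the further ER stress and heat shock genes, at most the 3 with the smallest p per list and comparison were named. Alternatives were RLE scaling, library totals only, 2 other filters, DESeq2 1.42.0, limma 3.58.1 voom with sample weights, a fit of just the groups compared, a replicate block, a covariate for the CT010467.1 share and each library left out. The count at an unadjusted p under 0.05 was added after seeing the data. The members and lists were chosen with earlier results of these data known. No pair of libraries within a group was closer than sampling noise allows (chi-square per gene of at least 13.4).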

Additional observations from a re-analysis of the deposited data

Results flagged for a closer look

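Dixon's test over the 4 libraries of each group picked out 3 of 117 gene and group combinations, where chance gives about 1 in 20. Hspa8 was low in scramble morphine replicate 1, at 1165 CPM against 1272 to 1293 CPM in the other 3 libraries of the group. Pdia3 was high in scramble morphine replicate 5, at 179 CPM against 162 to 164 CPM in the others. Ddit3 was high in scramble saline replicate 4, at 21.8 CPM against 15.6 to 16.6 CPM in the others.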

How the results depend on the processing

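Over all genes, the count for knockdown against scramble with morphine (0) was 2 without a filter, 158 with DESeq2, 1 with limma voom, and 0 to 375 with each library left out. For morphine against saline (0) it was 6 with DESeq2, 1 with the compared groups alone and 0 to 0 with each library left out. For knockdown with morphine against saline (3) it was 0 with library totals, limma voom or the CT010467.1 covariate, 5 without a filter or with the compared groups alone, 147 with DESeq2, and 0 to 55 with each library left out. Calls among the 39 genes ran from 0 to 1 with each library left out for knockdown against scramble with morphine, as did those of either further list, and DESeq2 called 1 further ER stress gene. Members at an unadjusted p under 0.05 in that comparison (9) were 0 with the covariate and 4 to 14 with a library left out. Over all 21958 genes tested, the same count was 2643 in the main fit and 1130 with the covariate. It ran from 1790 of 22606 genes without knockdown replicate 1 to 4172 of 22537 without knockdown replicate 5. For morphine against saline (1), members at that threshold were 3 with library totals, no filter or voom, 4 with the compared groups alone, 7 with the covariate and 1 to 3 with a library left out. Of all 21958 genes, 765 lay under it in the main fit, 768 with library totals, 1541 with voom and 847 with the covariate. The counts were 1497 of 39239 without a filter and 992 of 21039 with the compared groups alone. With a library left out they ran from 576 of 22563 to 964 of 22658. For knockdown with morphine against saline (10), such members were 4 with library totals or the covariate and 5 to 16 with a library left out. Of all 21958 genes, 2052 lay under the threshold in the main fit, 2392 with library totals and 1541 with the covariate. With a library left out the counts ran from 1375 of 22547 to 3422 of 22537. The ER median was -0.026 with library totals and -0.11 with the covariate in the first comparison and 0.14 with the covariate in the second, and the cytosolic median of the third was 0.053 to 0.21 with a library left out. Hspa5 for knockdown against scramble with morphine was -0.046 with library totals, -0.011 with voom, -0.22 with the covariate and -0.087 to 0.083 with a library left out, and Pdia4 was -0.11 with the covariate. The causes of these shifts were not tested.

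Whether the replicate numbers pair the libraries is not stated in the labels and was not settled here. Deviations of same-numbered libraries correlated between -0.013 and 0.12, and 6 of 9 matched best with their own number. The main fit treats the libraries as unpaired. With the number as a block the counts of genes called over all genes were 2, 1 and 0. For morphine against saline 6 members then had an unadjusted p under 0.05, as did 1407 of all 21958 genes. Hspa5 for knockdown against scramble with morphine was -0.025.

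Across pairs, r on deviations from group means and then without the 2 farthest libraries was 0.82 and 0.71 for Hspa5 and Hsp90b1, 0.77 and 0.52 for Hspa5 and Sdf2l1, 0.87 and 0.68 for Hspa1a and Hspa1b, 0.67 and 0.48 for Hspa5 and Hsph1, and 0.76 and 0.44 for Hspa5 and Hspa8, each no longer past the threshold, as was r = 0.53 with library totals for Hspa5 and Hspa8. On deviations from group means, rho was 0.27 for Hspa5 and Hsp90b1, 0.28 for Hspa5 and Sdf2l1, 0.74 for Hspa1a and Hspa1b, 0.35 for Hspa5 and Hsph1 and 0.43 for Hspa5 and Hspa8. Without the 2 farthest, r of Hsph1 and Dnajb1 turned to -0.18 and that of Hsp90aa1 and Hsp90ab1 to -0.054.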
